A study of Mus musculus with 31 samples.

Results

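The genes described here are 10 T cell genes: the CD3 chains Cd3d, Cd3e and Cd3g, the coreceptors Cd4, Cd8a and Cd8b1, the kinase Lck, the surface receptor Cd5, the chemokine receptor Ccr7 and the cytokine receptor chain Il7r. They were taken from a list of symbols, matched through the GENCODE M21 annotation. The list was chosen with earlier results of these data known. All 10 were among the 15987 genes of the table for epididymal white adipose tissue (eWAT, the fat pad beside the epididymis), and 2, Lck and Cd4, were among the 13677 genes of the liver table. The RNA came from wild-type male F1 mice of strain C57BL/6 that were 24 weeks old. Every animal, in every group, had eaten chow until 6 weeks of age and then a diet called LFD for 18 weeks. The groups differ by the diet tag LFD, HFD or HFLFD, written LF, HF and HFLF here. That the tag names the fathers' diet, not the animals' own, is a reading of the series title and is spelled out by no label. eWAT was sequenced in 4 LF, 6 HF and 6 HFLF animals and liver in 4 LF, 5 HF and 6 HFLF animals.

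T cells recognise antigen through the T cell receptor, whose antigen-binding chains signal through the CD3 chains. CD4 and CD8 bind the MHC molecule that presents the antigen and bring the kinase LCK to the receptor, which starts the signal. T cells are a minority of the cells of visceral fat, where they lie among fat cells, macrophages, vessels and milky-spot-like lymphoid clusters, and they also patrol the liver. In RNA from whole tissue, fewer T cells and less of these transcripts per T cell cannot be told apart.

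All members are protein-coding genes. The 3 CD3 genes lie together on chromosome 9 (GRCm38), with Cd3d at chr9:44981786-44987339 on the plus strand, Cd3g at chr9:44969572-44980431 and Cd3e at chr9:44998740-45009627 on the minus strand. Cd3d and Cd3g point away from each other from starts 1355 bases apart, and the starts of Cd3d and Cd3e are 27841 bases apart. The CD8 genes are neighbours on chromosome 6, Cd8b1 at chr6:71322788-71337494 and Cd8a at chr6:71373427-71379173, with starts 50639 bases apart. Cd4 lies elsewhere on that chromosome, at chr6:124864692-124888221. The others are Lck at chr4:129548344-129573641, Cd5 at chr19:10717116-10739002, Ccr7 at chr11:99144196-99155077 and Il7r at chr15:9505788-9530176. Cd3e shares 135 of its 4080 exonic bases with the antisense gene Gm48719, and Lck shares 25 of 2929 with the microRNA gene Mir8119. Whether the counts used strand is not given in the sources used here, so reads from Cd3e and Gm48719 cannot be told apart.

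RefSeq start-site windows on GRCm38.p6, each 300 bases from 250 before the start to 50 after it, were found for 7 members, 8 windows in all since Lck has 2 starts. They are shown for the 3 clustered CD3 genes, for Lck, whose values ran closest to the members' median, and for Il7r, whose values ran farthest from it among the members. Each is written 5′ to 3′ on the strand of the gene.
Cd3d (chr9:44981536-44981835, plus strand): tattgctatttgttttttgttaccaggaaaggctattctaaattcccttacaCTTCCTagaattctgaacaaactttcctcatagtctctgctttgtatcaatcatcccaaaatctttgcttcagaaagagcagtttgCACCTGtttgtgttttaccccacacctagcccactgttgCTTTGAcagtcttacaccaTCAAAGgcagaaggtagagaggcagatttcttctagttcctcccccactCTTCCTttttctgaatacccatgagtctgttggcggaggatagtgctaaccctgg
Cd3g (chr9:44980382-44980681, minus strand): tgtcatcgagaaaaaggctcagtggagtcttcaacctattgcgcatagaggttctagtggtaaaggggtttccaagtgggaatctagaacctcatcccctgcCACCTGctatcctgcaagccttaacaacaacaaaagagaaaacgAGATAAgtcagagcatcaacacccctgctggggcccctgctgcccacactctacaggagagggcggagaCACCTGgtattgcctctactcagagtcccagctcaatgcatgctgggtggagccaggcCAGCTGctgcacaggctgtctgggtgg
Cd3e (chr9:45009562-45009861, minus strand): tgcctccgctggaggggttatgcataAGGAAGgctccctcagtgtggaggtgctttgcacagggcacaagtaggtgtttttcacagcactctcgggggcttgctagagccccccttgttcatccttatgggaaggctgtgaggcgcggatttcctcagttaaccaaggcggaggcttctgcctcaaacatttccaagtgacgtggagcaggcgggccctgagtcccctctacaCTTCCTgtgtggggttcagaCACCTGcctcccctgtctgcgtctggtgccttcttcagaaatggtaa
Lck, start nearer the coding part (chr4:129558323-129558622, minus strand): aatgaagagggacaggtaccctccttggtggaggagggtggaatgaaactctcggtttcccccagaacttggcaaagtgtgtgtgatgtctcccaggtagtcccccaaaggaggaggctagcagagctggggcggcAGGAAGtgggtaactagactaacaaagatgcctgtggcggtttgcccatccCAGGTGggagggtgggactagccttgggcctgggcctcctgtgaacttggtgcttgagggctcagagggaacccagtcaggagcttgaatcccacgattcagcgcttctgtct
Lck, start farther from it (chr4:129573592-129573891, minus strand): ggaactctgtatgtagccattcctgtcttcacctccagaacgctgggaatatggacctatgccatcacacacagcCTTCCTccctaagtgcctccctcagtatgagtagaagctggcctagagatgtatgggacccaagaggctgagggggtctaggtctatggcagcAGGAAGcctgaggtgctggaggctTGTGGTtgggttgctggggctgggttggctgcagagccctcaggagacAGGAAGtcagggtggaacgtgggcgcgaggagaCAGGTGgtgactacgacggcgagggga
Il7r (chr15:9529827-9530126, minus strand): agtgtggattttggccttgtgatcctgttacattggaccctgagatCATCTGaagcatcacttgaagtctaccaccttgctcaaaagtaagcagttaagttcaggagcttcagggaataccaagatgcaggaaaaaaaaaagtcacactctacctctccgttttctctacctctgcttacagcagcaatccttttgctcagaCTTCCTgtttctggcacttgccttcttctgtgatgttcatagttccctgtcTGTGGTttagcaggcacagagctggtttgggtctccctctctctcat
Capitals mark matches, on either strand, to 6 short motifs that T cell transcription factors or the basal machinery can bind. The E protein motif was CAGNTG, which reads CANCTG from the other strand. It was in all 8 member windows and in 51.4% of the 32851 RefSeq windows of the same length. The ETS motif AGGAAG was in 6 of 8 member windows, those of Cd3d, Cd3e, Cd5, Il7r and both of Lck, against 35.4% of all windows. The RUNX motif TGTGGT was in 2 windows, the farther one of Lck and that of Il7r, against 16.8% of all. The GATA motif AGATAA was in 1 window (Cd3g; 11.2% of all windows). The TCF/LEF motif CTTTGA was in 1 window (Cd3d; 16% of all windows). The TATA box motif TATAAA was in 0 (13.6% of all windows). A match describes letters only.

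eWAT libraries held 9278083 to 27230205 counts and liver libraries 9225373 to 17268415. Levels are CPM, counts scaled to one common library size, with the library total adjusted by trimmed means of M values (TMM). A library with 3 counts or fewer of a gene was taken to be at the floor of detection. The labels do not say that the animals come from separate litters, so p-values measure the spread between these animals. Hepatocyte genes led in liver (Alb at 46648 to 83076 CPM) and adipocyte genes in eWAT (Fabp4 at 13238 to 19726 CPM), as labelled. In eWAT the 5 measured genes of a testis list summed to 23.2, 17.9, 74.0 and 116 CPM in LF 3, LF 6, HF 2 and HF 6 and to 4.02 CPM or less elsewhere. B cell markers summed to 4325, 1399 and 2455 CPM in LF 2, HF 3 and HF 5 and to 258 to 735 CPM elsewhere. The members' comparisons are therefore given with and without them.

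The CD3 chains were low in eWAT and uneven between animals. Cd3e, the epsilon chain found in both CD3 dimers of the receptor, stood at 10.1, 1.70, 4.85 and 1.62 CPM in LF animals 2, 3, 5 and 6. In HF it ran from 1.14 to 5.70 CPM with a median of 1.604, and in HFLF from 1.56 to 2.37 with a median of 2.24. LF 2 was thus above every other animal, HF 5 came next, and the HFLF animals lay inside the HF range, with HFLF 6 just below the lowest LF animal. Cd3d, the delta chain, stood at 5.27, 1.27, 2.81 and 0.427 CPM in LF, at 0.350 to 3.04 (median 0.732) in HF and at 0.638 to 1.99 (median 1.15) in HFLF. Cd3g, the gamma chain, stood at 9.25, 1.27, 3.06 and 0.684 CPM in LF, at 0.819 to 3.91 (median 1.24) in HF and at 0.998 to 2.39 (median 1.72) in HFLF. For all 3 chains the order of the highest animals began with LF 2 and HF 5, and LF 6 was the lowest animal for Cd3g. Counts behind these values ran from 4 (Cd3d in HF 4) to 150 (Cd3e in LF 2). Per kilobase of exon, the ratio of Cd3d to Cd3e ran from 0.473 to 1.89 across libraries (median 1.22) and that of Cd3g to Cd3e from 0.526 to 1.62 (median 0.957).

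Cd4, the coreceptor of helper and regulatory T cells, stood at 13.2, 4.77, 4.02 and 2.22 CPM in LF. It ran from 1.09 to 6.13 CPM (median 1.96) in HF and from 0.984 to 3.33 (median 1.33) in HFLF. The LF median lay above both others, but the arms overlapped, since LF 6 at 2.22 CPM was below 2 HF animals and 2 HFLF animals. Cd8a, the alpha chain of the coreceptor of cytotoxic T cells, stood at 5.88, 1.48, 1.85 and 0.427 CPM in LF, at 0.364 to 3.97 (median 0.533) in HF and at 0.214 to 3.24 (median 0.976) in HFLF. Cd8b1, its partner chain and the member with the fewest counts, stood at 3.38, 0.212, 1.08 and 0.256 CPM in LF, at 0.229 to 1.11 (median 0.357) in HF and at 0.120 to 0.819 (median 0.470) in HFLF. Both CD8 genes were highest in LF 2, and their low values rest on few reads. Cd8b1 was at or under the floor in 3 libraries (LF 3, LF 6 and HFLF 1) and Cd8a in 1 (HFLF 3). Cd8a in HFLF 4 was the exception to low HFLF values, at 3.24 CPM from 33 counts. Per kilobase, Cd4 was lower than Cd8a in that animal and in HFLF 5, with ratios of 0.656 and 0.827, while the ratio reached 4.81 in HFLF 3, where Cd8a rests on 3 counts, and had a median of 1.99. The ratio of Cd8b1 to Cd8a per kilobase ran from 0.307 to 3.27, a spread that the floor in those libraries touches.

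Lck, the kinase that CD4 and CD8 carry, was the member whose values followed the others most closely. It stood at 16.5, 4.35, 6.89 and 2.22 CPM in LF, at 2.09 to 8.21 (median 2.80) in HF and at 2.07 to 4.64 (median 3.29) in HFLF. With 23 to 245 counts per library it was never near the floor. Cd5, a surface receptor that dampens T cell receptor signalling and is also carried by B-1 cells, stood at 8.31, 2.01, 3.32 and 0.427 CPM in LF, at 0.655 to 3.48 (median 0.895) in HF and at 0.490 to 2.45 (median 1.05) in HFLF. LF 2 and HF 5 again held the top places for both genes.

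Ccr7, the receptor that leads naive T cells and mature dendritic cells into lymphoid tissue, stood at 8.92, 2.23, 1.34 and 2.48 CPM in LF. It ran from 1.05 to 3.81 CPM (median 2.37) in HF and from 0.570 to 2.41 (median 1.70) in HFLF. Without LF 2 the LF animals lay inside the HF range, and LF 5, which ranked high for the CD3 chains, was the lowest LF animal. Il7r, the alpha chain of the receptor for the survival cytokine interleukin 7, was the member with the highest level per kilobase and had another order of animals. It stood at 16.3, 17.6, 6.95 and 4.27 CPM in LF, at 4.39 to 43.2 (median 8.67) in HF and at 2.62 to 9.49 (median 5.87) in HFLF. HF 2 was highest, with 474 counts, followed by LF 3 at 17.6 and HF 4 at 16.96 CPM. In HF 2 the other 9 members summed to only 10.02 CPM, among the lower sums of the 16 libraries. The ratio of Il7r to Cd3e per kilobase was 24.4 in that library, against a median of 2.43 across libraries.

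**Figure D1:**
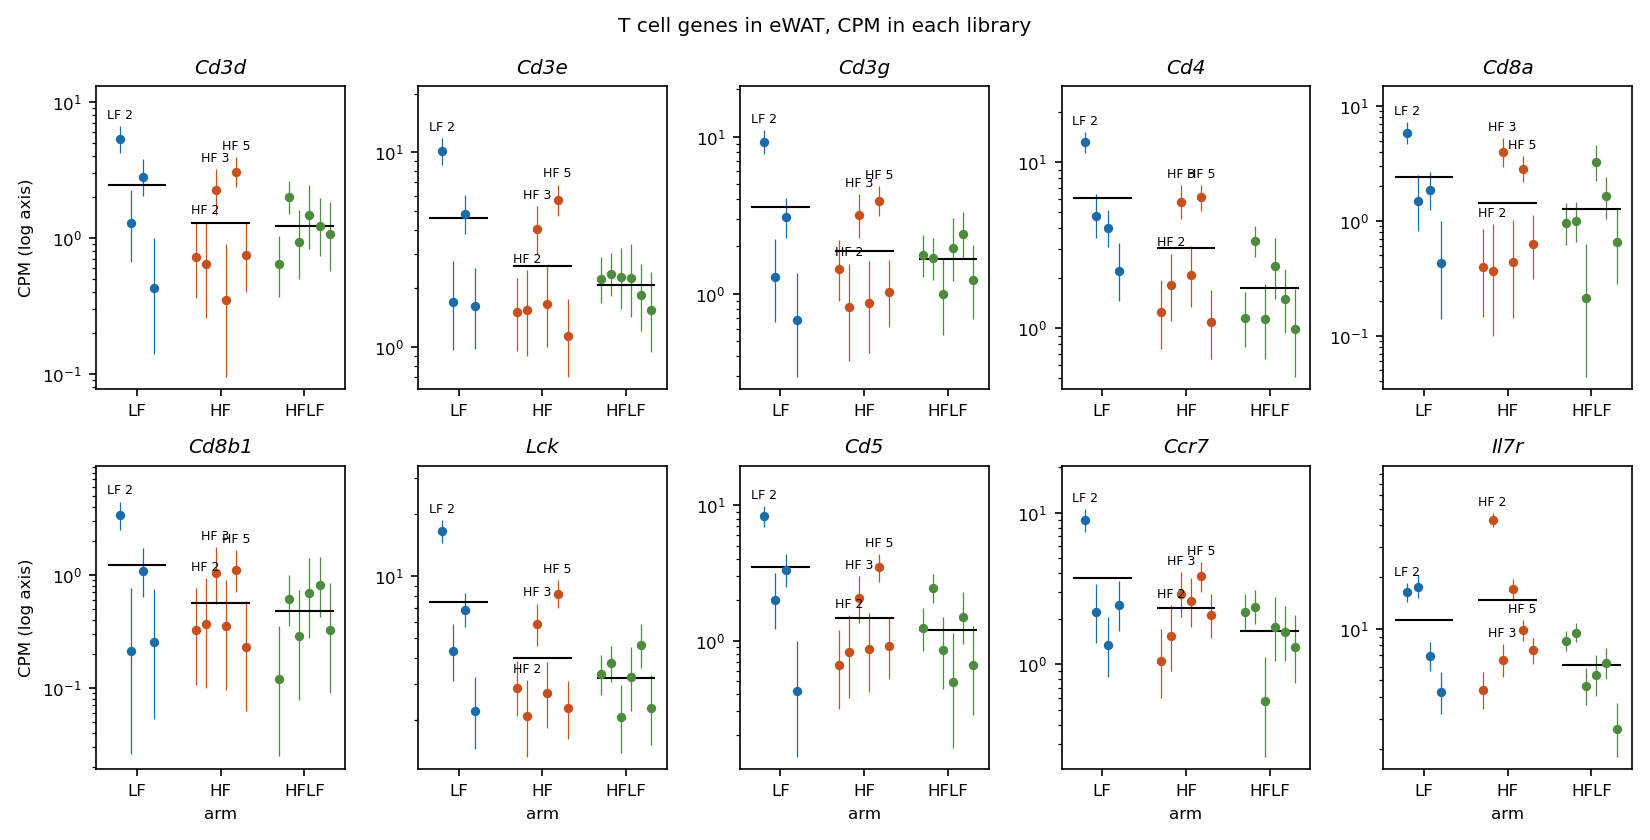
CPM on a log axis for each T cell gene in each eWAT library (points; bars are exact Poisson intervals of the count at a confidence level of 95%, covering counting error only), by arm, with the arm mean as a line. LF 2 is the highest point for 9 of 10 genes, and for Il7r it is HF 2 at 43.2 CPM; no gene separates the arms.

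Per kilobase of exon, and averaged over the 16 eWAT libraries, the order of the levels was Il7r at 2.29 ± 2.11 (SD), Lck at 1.57 ± 1.25, Ccr7 at 1.23 ± 0.96, Cd3d at 0.854 ± 0.708, Cd4 at 0.819 ± 0.776, Cd3e at 0.711 ± 0.570, Cd3g at 0.679 ± 0.642, Cd8b1 at 0.472 ± 0.531, Cd8a at 0.446 ± 0.440 and Cd5 at 0.381 ± 0.399 CPM per kilobase. Each step between neighbours in this order was smaller than the SD over libraries of either gene. Without LF 2 the means of Lck, Ccr7 and Cd4 were 1.29 ± 0.64, 1.01 ± 0.41 and 0.656 ± 0.435 CPM per kilobase. The spread was large for these genes: the biological coefficient of variation, edgeR's estimate of the spread between animals of 1 arm, had a median of 0.615 over the members against 0.168 over all eWAT genes.

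Most of the 10 genes, but not Il7r, shared their highest animals. LF 2 was the highest of 16 libraries for 9 of 10 members, every one but Il7r, against 7.96% of all genes. HF 2 was the highest for Il7r (6.46% of all genes). HF 5 was among the 3 highest for 8 members (16.9% of all genes) and HF 3 for 4 members (15.2%). LF 2, HF 3 and HF 5 together held the top places for 3 members (1.48%). Because the members were chosen with earlier results of these data known, these shares are descriptions. LF 2 exceeded the next library by 1.48 times for Cd8a and by 3.04 times for Cd8b1, and by values between these for the other 7. These 3 libraries were also those with high B cell markers. Cd79a, a signalling chain of the B cell receptor, stood at 92.5 CPM in LF 2, 41.7 in HF 5 and 19.4 in HF 3, and at 1.72 to 5.56 in the others. Cxcl13, the chemokine that draws B cells into follicles, stood at 292, 98.3 and 23.1 CPM in the same libraries and at 0.787 to 5.73 in the others. LF 5 did not share this: it was among the 3 highest for 5 members, with Cd79a at 1.72 CPM. Over the whole B cell marker list, 18 of 20 genes were measured, and the summed level ran from 258 to 4325 CPM in LF, 288 to 2455 in HF and 374 to 735 in HFLF. The part of lymphoid tissue in these libraries in the T cell values was not tested.

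No T cell gene passed the test between HF and LF eWAT. The edgeR quasi-likelihood test with Benjamini-Hochberg adjustment called 0 of 10 members and 0 of 15987 genes (0%), and 0 members had an unadjusted p under 0.05 against 7.04% of all genes. That count was 7 without LF 6 and 6 without HF 5, against 920 of 15987 and 1184 of 15835 genes. It was 4 without LF 3 and 1 without HF 3, against 907 of 15987 and 967 of 15890 genes. Lck had a mean of 4.01 ± 2.48 CPM in HF (SD, n = 6) against 7.50 ± 6.33 in LF (n = 4), a log2 fold change of -0.90 ± 0.47 (SE; edgeR adjusted p = 0.689). Cd5 differed most, by -1.25 ± 0.62 (edgeR adjusted p = 0.689), followed by Cd8b1 at -1.13 ± 0.66 and Cd4 at -0.99 ± 0.55. Il7r was the only member with a higher mean in HF, at 14.7 ± 14.6 against 11.3 ± 6.65 CPM (0.38 ± 0.59), and its value was -0.32 without HF 2. The median over the 10 members was -0.91, against -0.0042 over all genes, and 9 of 10 were lower. Without LF 2 this pattern was gone: 5 members were lower and 5 higher, with a median of -0.00065. Lck then differed by -0.15 ± 0.44, Cd3g by 0.16 ± 0.53 and Ccr7 by 0.25 ± 0.42. With LF 2, HF 3 and HF 5 all left out, 8 of the 9 members still tested were lower, with a median of -0.93. Of the members, 5 had an unadjusted p under 0.05, against 1304 of 15864 genes. That choice takes the high animals out of HF as well. Leaving out the 4 libraries with testis transcripts gave a median of -1.22, with all 10 lower. Then 5 members had an unadjusted p under 0.05, against 433 of 15940 genes, and LF 2 and LF 5 were the only LF animals.

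Between HFLF and LF eWAT all 10 members had lower means in HFLF, and again none passed. The edgeR test called 0 members and 0 of 15987 genes (0%). At an unadjusted p under 0.05 there were 6 members, Lck, Cd8b1, Cd4, Cd3e, Ccr7 and Cd5, against 10.8% of all genes. That count was 1 by limma voom and 1 with the replicate number as a block, against 1449 and 1459 of 15987 genes. It was 3 without HFLF 6 and 8 without LF 6, against 1384 of 15949 and 2033 of 15987 genes. Without the 4 libraries with testis transcripts it was 8, against 1163 of 15940 genes, and the median was -1.85. Without LF 2, HF 3 and HF 5 it was 1, against 1323 of 15864 genes. All 9 members still tested were then lower, with a median of -0.41. Cd4 stood at 1.74 ± 0.92 CPM in HFLF (SD, n = 6) and 6.05 ± 4.87 in LF (n = 4), a log2 fold change of -1.78 ± 0.56 and the smallest edgeR adjusted p of the members at 0.282. Cd5 differed by -1.51 ± 0.62, Cd8b1 by -1.45 ± 0.67, Lck by -1.22 ± 0.47 and Ccr7 by -1.16 ± 0.48. The median was -1.15, against 0.0094 over all genes. Without LF 2 the 10 members were still lower, but the median was -0.37. Then 0 members had an unadjusted p under 0.05, against 1489 of 15987 genes. Cd4 then kept the largest difference, -1.06 ± 0.55 (edgeR adjusted p = 0.570), while Cd3g (-0.04 ± 0.53) and Cd8a (-0.03 ± 0.84) differed by far less than their errors. For each of the 10 members the SD of the CPM was smaller in HFLF than in the other arms, as for Cd3e at 0.319 CPM over 6 HFLF animals against 1.84 over 6 HF animals. Without LF 2 the LF SD was the smallest for Cd8a and Ccr7, at 0.739 and 0.598 CPM.

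The members' differences between HFLF and HF eWAT were mostly within their errors. All 10 members had lower means in HFLF, with a median of -0.32 against 0.0012 over all genes, and edgeR called 0 members and 0 of 15987 genes (0%). Il7r had the largest difference, -1.22 ± 0.53, and was the only member with an unadjusted p under 0.05 (edgeR adjusted p = 0.517), against 9.3% of all genes. Its mean was 6.16 ± 2.53 CPM over the HFLF animals and 14.7 ± 14.6 CPM over the HF animals. Without HF 2 the Il7r value was -0.54 ± 0.41. For most of the others the sign depended on HF 5. Without it, 7 of 10 members were higher in HFLF, among them Cd3d at 0.37 and Lck at 0.025, and without HF 3 it was 3 of 10. Cd4 and Ccr7 were lower whichever single library was left out, at -1.12 to -0.45 and -0.64 to -0.29. Without LF 2, HF 3 and HF 5, 7 of 9 were higher, with a median of 0.52 and Cd8a at 1.39. Then 2 members had an unadjusted p under 0.05, against 925 of 15864 genes. Without the 4 libraries with testis transcripts all 10 were lower, with a median of -0.63. Of these, 1 had an unadjusted p under 0.05, against 1831 of 15940 genes. The 3 comparisons share their libraries, so their directions are not separate observations. In none of them did the libraries of 2 arms lie apart for any member, against 0.926%, 1.23% and 0.757% of all genes for HF with LF, HFLF with LF and HFLF with HF. By DESeq2, 12, 69 and 52 genes passed in the 3 comparisons (0.0751%, 0.432% and 0.325%), and by limma voom 0 genes. For HFLF with LF 0 members passed by DESeq2. In the other comparisons DESeq2 gave no member an adjusted p, so none could pass.

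**Figure D2:**
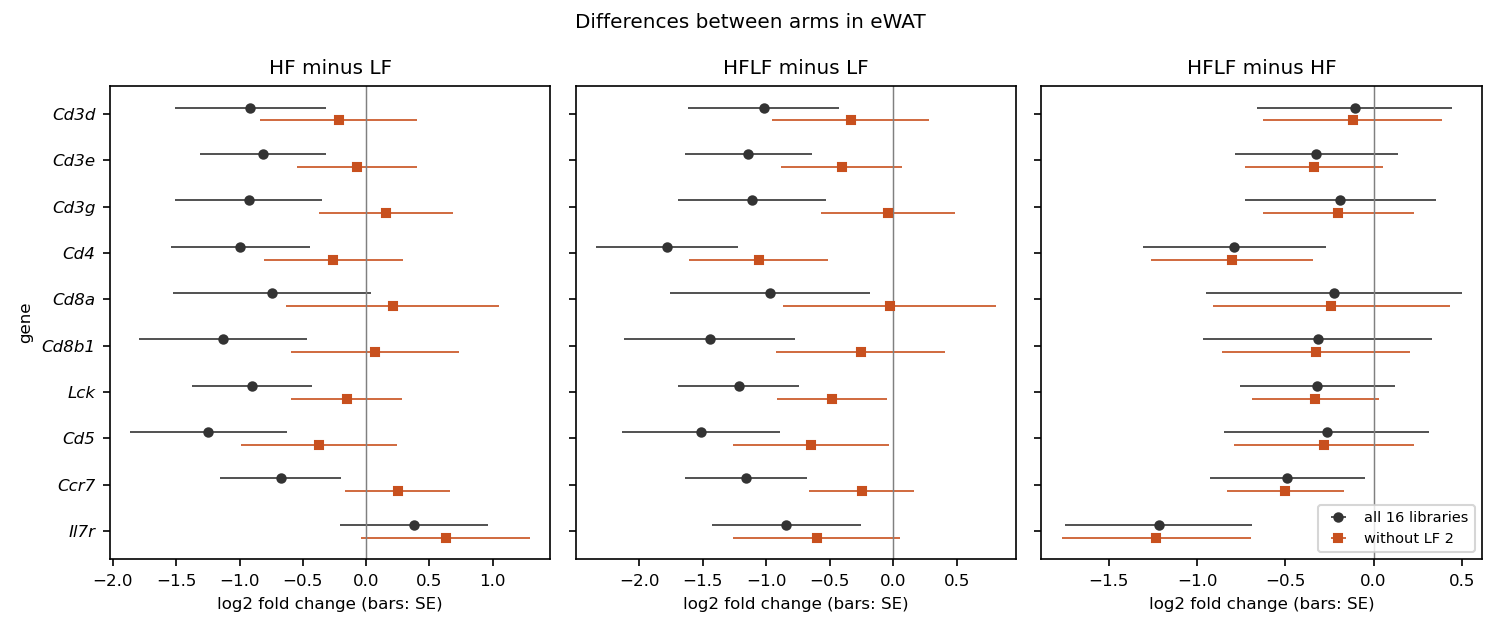
Log2 fold change with its standard error for each T cell gene in the 3 comparisons of eWAT arms, from all 16 libraries (circles) and without LF 2 (squares). Leaving out LF 2 moves the HF minus LF median from -0.91 to -0.00065 and the HFLF minus LF median from -1.15 to -0.37. HFLF minus HF has LF 2 in neither arm, so leaving it out could act there only through scaling and the shared spread.

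Of the 6 genes outside the list that ran closest with the members in eWAT, 5 were on another of the lists used here. Likeness was measured as the root mean square difference, over the 16 eWAT libraries, between a gene's centred log2 CPM and the median of the members. That median includes each member's own values, so members and genes outside the list are not compared on equal terms. The 6 closest were Lat, the adaptor that LCK signalling reaches through ZAP70 (0.261), Trbc1, a constant part of the T cell receptor beta chain (0.294), Cd6, a relative of Cd5 (0.303), the chemokine Ccl5 (0.308), Rasal3 (0.310) and Bcl11b, a T lineage transcription factor (0.310). The median over all genes was 0.860. Without LF 2 the 6 closest were Lat, Bcl11b, Cxcr3, Trbc1, Ccl5 and Gimap7, at 0.257 to 0.309, where the median over all genes was 0.669. Among the members, Lck lay closest to the common profile (0.150), then Cd3g (0.290) and Cd3e (0.294). Cd4 (0.458), Ccr7 (0.588) and Cd8a (0.612) lay farther, with 46, 171 and 224 genes outside the list closer than they were. Without LF 2 those numbers were 93, 2297 and 3687, while the differences themselves were 0.480, 0.610 and 0.628 and the median over all genes was lower. The libraries share their depth and high animals, so these are descriptions.

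Il7r did not belong to this profile. Its difference was 1.07, and 14755 genes outside the list were closer to the members than Il7r was. The genes closest to Il7r itself, looked up after its values were seen, were Ctss, a cathepsin of antigen-presenting cells (0.313), the immune receptor Cd84 (0.355), the cholesterol esterifying enzyme Soat1 (0.375), Slc25a13 (0.436), the macrophage gene Mpeg1 (0.446) and Cd200r4 (0.447). Ctss stood at 475 CPM in HF 2, 325 in LF 3, 230 in LF 2 and 220 in HF 4, with a median of 126, and these are the 4 libraries with the most Il7r. Macrophage markers, of which 14 of 15 were measured, summed to 1747 to 3106 CPM in LF with the highest in LF 3, to 1585 to 2802 in HF with the highest in HF 2, and to 1194 to 1962 in HFLF. Itgax, a marker of dendritic cells and of some fat macrophages, was highest in HF 2 too, at 106 CPM against a median of 22.4. Il7, the ligand, was even across animals at 2.48 to 5.95 CPM and was at 2.73 in HF 2. The part of macrophages in the Il7r values was not tested.

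**Figure D3:**
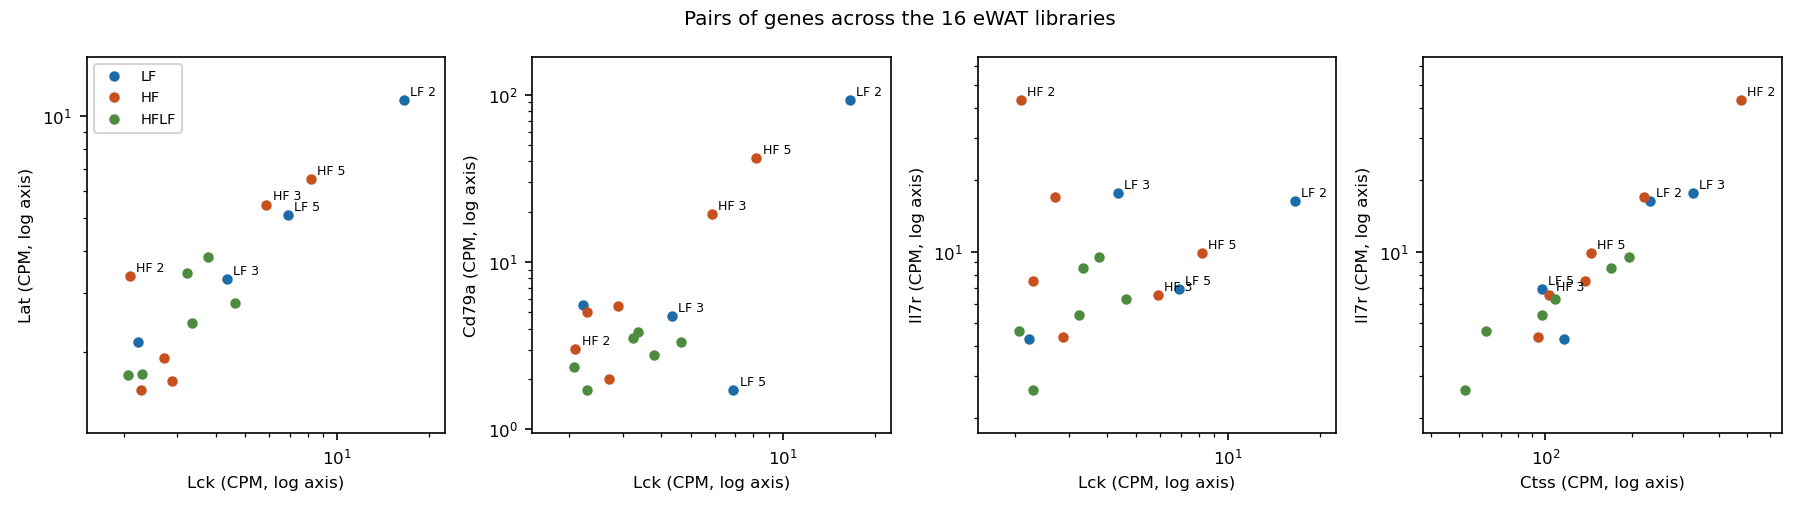
CPM of pairs of genes in the 16 eWAT libraries on log axes, coloured by arm: Lat, Cd79a and Il7r against Lck, and Il7r against Ctss. Lat and Lck are both highest in LF 2 and next in HF 5, while Lat is at 3.37 CPM in HF 2. Cd79a is high in LF 2, HF 5 and HF 3 but not in LF 5. Il7r is highest in HF 2, where Ctss is at 475 CPM and Lck at 2.09 CPM.

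Other genes of the T cell receptor pathway showed the same dependence on LF 2. Of 20 receptor and proximal signalling genes, 18 were measured in eWAT, and edgeR passed 0 in any arm comparison. In HF against LF 17 of 18 were lower (median -0.57), and without LF 2 it was 11 of 18 (median -0.04). In HFLF against LF all 18 were lower (median -0.92; 15 of 18 and -0.38 without LF 2), and in HFLF against HF 14 of 18 (median -0.36). Csk, the kinase that holds LCK inactive, had the highest mean CPM of the list, 86.7, and differed little (-0.27 ± 0.09 in HF and -0.23 ± 0.09 in HFLF, both against LF). Ptprc, the phosphatase CD45 found on all leukocytes, stood at 24.0 to 127 CPM with LF 2 highest and differed by -0.19 ± 0.33 and -0.73 ± 0.33. Trac, the constant part of the receptor alpha chain and a defining T cell gene, stood at 12.2 CPM in LF 2 and 0.984 to 5.04 in the other libraries.

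Costimulatory and adhesion receptors, which add a signal to that of the receptor, were measured for 15 of 16 genes. In HF 14 were lower than in LF (median -0.46) and in HFLF all 15 (median -0.88), and without LF 2 the medians were 0.07 and -0.31. Thy1 at a mean of 23.7 CPM and Cd52 at 19.3 CPM had the highest mean CPM, and Thy1 is also made by stromal cells. The 14 T cell transcription factors were all measured and all lower in both arms than in LF (medians -0.53 and -0.70), against medians of 0.12 and -0.16 without LF 2. Zbtb7b, needed for CD4 T cells and at a mean of 180 CPM in this tissue, differed by -0.29 ± 0.10 in HF and -0.07 ± 0.10 in HFLF, and Ets1 (105 CPM) by -0.06 ± 0.12 and -0.18 ± 0.12. Of 9 genes of naive T cell homing 7 were measured, with medians of -0.17 and -0.77 (0.17 and -0.42 without LF 2). S1pr1 and Klf2, those with the highest mean CPM and both also made by vessels, differed by 0.07 ± 0.14 and 0.03 ± 0.15 in HF.

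Effector and subset genes were measured in part. Of 10 cytotoxic effector genes 6 were measured, all lower in both arms than in LF (medians -0.59 and -0.70; -0.13 and -0.34 without LF 2). Ccl5 stood at 15.3 CPM in LF 2, 9.06 in LF 5, 8.35 in HF 5 and 8.33 in HF 3, the same 4 animals that led for the CD3 chains, and Ctsw, a cathepsin of killer cells, differed by -1.02 ± 0.41 in HF. Of 11 genes of regulatory T cells, which are known for their place in lean visceral fat, 8 were measured and 4 were lower in each arm (medians -0.11 and -0.18; 0.19 and 0.28 without LF 2). Those with the highest mean CPM pointed opposite ways: Il1rl1, the receptor for interleukin 33, differed by 0.53 ± 0.25 in HF and 0.36 ± 0.25 in HFLF, and Il2rb by -0.94 ± 0.33 and -1.13 ± 0.33. Foxp3, their defining factor, stood at 3.51 CPM in LF 2 and 0.214 to 1.98 elsewhere. Gamma delta T cell and innate lymphoid genes were measured for 7 of 14 (medians -0.25 and -0.49; 0.21 and -0.06 without LF 2), and those with the highest mean CPM, Zbtb16 and Sox13, are not limited to lymphocytes. Of 13 ligands that T cells read 9 were measured, with medians of 0.05 and -0.24 (0.24 and -0.01 without LF 2), and those with the highest mean CPM, H2-D1 and B2m of MHC class I, differed by -0.14 ± 0.13 and 0.10 ± 0.14 in HF. By edgeR 0 of these genes passed.

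Markers of other cells are given for the same comparisons, and edgeR passed 0 of them. B cell markers were lower in all 18 measured genes in HF against LF (median -1.06), and higher in all 18 without LF 2 (median 1.52). Without LF 2, HF 3 and HF 5 the B cell median was -0.09, with 11 of 17 genes lower, while that of the receptor signalling list was -0.36, with 13 of 16 lower. Against LF, HFLF gave medians of -3.17 for B cell and -3.02 for plasma cell markers (10 of 12 measured), and -0.57 and -0.19 without LF 2. In HF the plasma cell median was -0.46, and it was above 0 without LF 2, with 8 of 10 genes higher. So T and B cell genes shared the high animals, but leaving out LF 2 brought the T cell median to -0.00065 and the B cell median to 1.52. Ighm and Cd79a led the B cell list, at 3534 and 92.5 CPM in LF 2. By mean CPM the other lists were led by Igkc and Xbp1 (plasma cell), Klrk1 and Klrd1 (NK cell), Lyz2 and Csf1r (macrophage), Zbtb46 and Itgax (dendritic cell), and Kit and Tpsb2 (neutrophil and mast cell). For tissue cells these were Enpp2 and Ltbr (lymphoid stroma), Fabp4 and Cidec (adipocyte), Upk3b and Msln (mesothelium), Alb and Apoa1 (hepatocyte), Cdh5 and Pecam1 (endothelium) and Prm2 and Tnp2 (testis). NK cell markers (7 of 11 measured) had medians of -0.58 in HF and -0.43 in HFLF, and -0.10 and -0.27 without LF 2. Macrophage markers had medians of -0.19 and -0.59, dendritic cell markers (11 of 12) 0.09 and -0.05, and neutrophil and mast cell markers (9 of 12) 0.27 and -0.54. Lymph node and lymphoid cluster genes (8 of 16 measured, Cxcl13 among them) had medians of -0.20 and -0.16 and summed highest in LF 2 at 858 CPM, while adipocyte markers (12 of 12) summed lowest there, at 34563 CPM, with medians of -0.19 and 0.01. Mesothelium (12 of 12), hepatocyte (11 of 12), endothelial (9 of 10) and testis (5 of 12) lists had medians of 1.07, -0.41, 0.03 and 1.45 in HF and 0.22, -2.55, 0.10 and -4.56 in HFLF. Without LF 3, LF 6, HF 2 and HF 6 only 1 testis gene was still tested, at -0.26 in HF and -0.88 in HFLF. The part of these cells in the T cell differences was not tested.

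In liver, Lck and Cd4 were followed in 15 libraries, and neither passed between arms. Lck stood at 0.464, 0.316, 0.500 and 0.761 CPM in LF animals 1, 2, 3 and 6. In HF animals 1, 2, 3, 5 and 6 it stood at 0.642, 0.955, 0.782, 0.626 and 2.85 CPM, and in HFLF at 0.504 to 0.895 with a median of 0.716. HF 6, with 39 counts, was the highest library by a wide margin, and LF 2, with 3 counts, was at the floor. The log2 fold change of HF against LF was 1.13 ± 0.45 (edgeR adjusted p = 1.00) and 0.51 ± 0.33 without HF 6. Lck was the 1 member of 2 with an unadjusted p under 0.05 here, against 3.6% of all liver genes. It was no longer so without LF 1, without LF 2, without HF 6 or by limma voom. From all libraries edgeR called 0 of 13677 genes (0%). HFLF differed from LF by 0.44 ± 0.47 and from HF by -0.69 ± 0.40, where edgeR also called 0 genes (0% each), with 5.47% and 1.86% of genes and 0 members at an unadjusted p under 0.05. DESeq2 passed 1, 11 and 0 liver genes in HF against LF, HFLF against LF and HFLF against HF (0.00731%, 0.0804% and 0%), and 0 members, and limma voom 0 genes. For HFLF against LF DESeq2 gave neither member an adjusted p, so neither could pass.

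HF 6 was also the liver with the most Ccl5, 3.36 CPM against 0.332 to 1.14 in the others, and Ccl5 was the gene whose centred values lay closest to those of liver Lck (root mean square difference 0.3002). Lat stood at 1.90 CPM there and at 0.143 to 1.40 elsewhere. The immunoglobulin genes Ighm and Jchain were high in the same liver, at 132 and 14.5 CPM against 3.86 to 28.0 and 0.737 to 2.12. HF 6 was the highest library for 5.1% of all liver genes. Whether blood or lymphoid tissue had a part in that value was not tested.

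Cd4 in liver had another distribution. It stood at 4.44, 2.63, 3.25 and 1.59 CPM in LF, at 2.14, 2.94, 2.10, 1.81 and 2.12 CPM in HF and at 1.24 to 4.28 (median 3.42) in HFLF. HF 6, highest for Lck, was at 2.12 CPM, in the middle of its arm. The HF animals were close together, and both other arms spread to either side of them. Cd4 differed by -0.43 ± 0.33 in HF and by 0.05 ± 0.31 in HFLF, both against LF, and by 0.48 ± 0.30 between HFLF and HF. No member separated the arms in liver, against 1.34%, 0.943% and 0.19% of all genes. The 6 genes closest to liver Cd4, looked up after its values were seen, were Myom3 (0.256), Hist2h2be, Tlcd2, Mgat5, Nme4 and Ccdc120. None of them is on the T cell lists. The 6 closest to liver Lck were Ccl5, Lrmp, Gimap3, Rassf2, Taf9b and Ip6k2. After Ccl5, those from Lrmp to Ip6k2 lay at differences of 0.399 to 0.421.

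Lck and Cd4 were ordered differently in the 2 tissues. In 1 edgeR fit of 31 libraries and the 12735 genes in both tables, Lck was higher in eWAT by 1.87 ± 0.29 on the log2 scale (edgeR adjusted p = 8.94e-07), where 85.5% of genes were called (85.8% by DESeq2) and 42.9% were called higher in eWAT. Cd4 was lower in eWAT by 0.50 (log2 fold change -0.50 ± 0.28, edgeR adjusted p = 0.0908), which did not pass. Without eWAT LF 2 the Cd4 value was -0.75 and passed (edgeR adjusted p = 0.00910), and it also passed without HF 3, HF 5 or HFLF 2 of eWAT (-0.59, -0.63 and -0.62). Per kilobase of exon, Lck exceeded Cd4 in eWAT, at 1.57 ± 1.25 against 0.819 ± 0.776 CPM per kilobase (SD, n = 16). In liver Cd4 exceeded Lck, at 0.689 ± 0.255 against 0.277 ± 0.202 CPM per kilobase (SD, n = 15). Library composition differs strongly between the tissues, and the scaling assumes that most genes do not. For the receptor and proximal signalling list, 9 genes were in both tables, of which 5 passed higher in eWAT and 3 lower (median 1.31). All 6 measured genes of naive T cell homing passed higher in eWAT (median 2.20), and for the costimulatory receptors it was 5 of 6 (median 1.74).

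The differences between arms were not shown to differ between tissues. For HF against LF the eWAT value of Lck minus its liver value was -2.03 ± 0.74 (edgeR adjusted p = 0.956), and -1.41 ± 0.73 without liver HF 6 and -1.27 ± 0.67 without eWAT LF 2. For HFLF against LF the interaction was -1.68 ± 0.78 for Lck and -1.84 ± 0.69 for Cd4 (edgeR adjusted p = 0.817 and 0.688). Without eWAT LF 2 these were -0.92 ± 0.70 for Lck and -1.09 ± 0.65 for Cd4. edgeR called 0 of 12735 genes (0%) in each of the 3 interactions, where 4.88%, 5.84% and 4.94% of genes had an unadjusted p under 0.05, as did 1 (Lck), 2 and 0 of the 2 members. DESeq2 called 0, 23 and 0 genes (0%, 0.181% and 0%), with 0 members. In the interaction for HFLF against LF it gave neither member an adjusted p, so neither could pass.

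**Figure D4:**
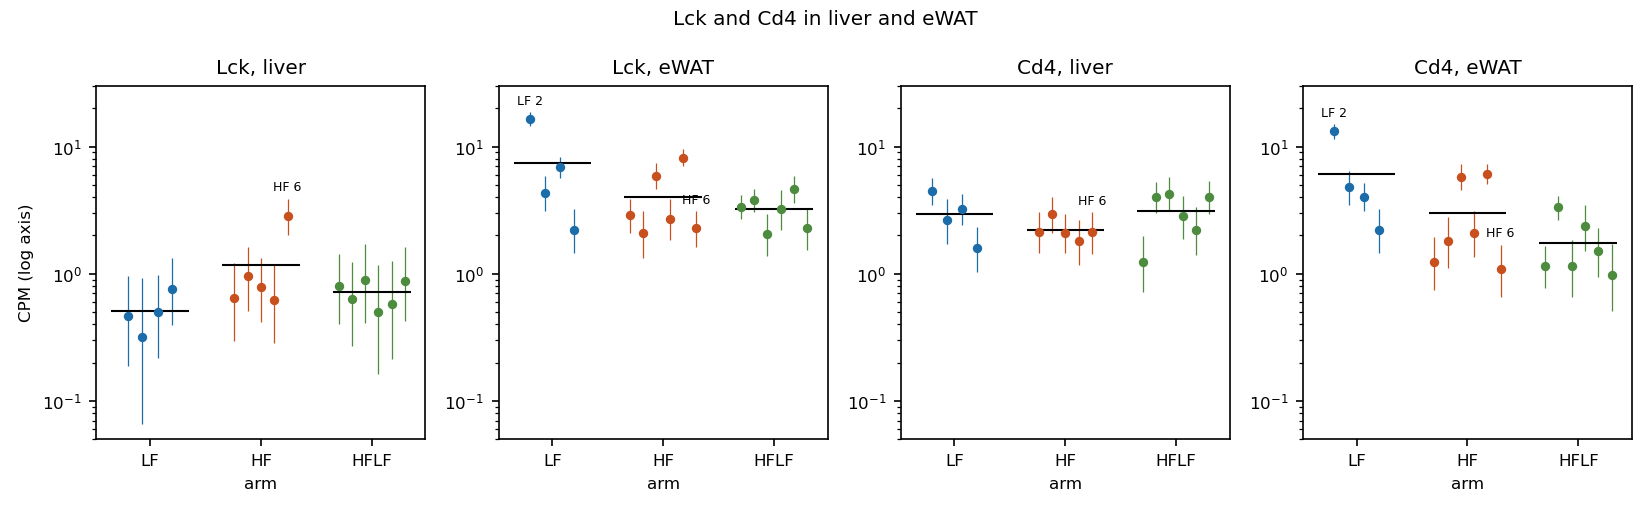
CPM on a common log axis of Lck and Cd4 in each liver and eWAT library by arm (points; bars are Poisson intervals of the count at a confidence level of 95%; lines are arm means). The lowest eWAT value of Lck is 2.07 CPM, above every liver value but that of HF 6, which is at 2.85 CPM, and the Cd4 ranges of both tissues overlap.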

How the data were processed

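Total RNA of liver and eWAT was sequenced on an Illumina NovaSeq, per the labels' protocols. Alignment used STAR and the GRCm38.p6 genome (the submitters' processing notes), while the sources used here do not give the STAR version, counting tool, annotation or strand setting. The authors deposited whole-number counts per gene, already filtered on CPM by their file names, with no cutoff given. Deposited RPKM tables were not used, because the gene lengths they imply did not match between libraries (correlations from -0.0429 to 0.0346 in eWAT). Counts were fitted with edgeR 4.0.16 in R 4.3.3 (TMM, filterByExpr, which removed 0 genes, robust quasi-likelihood, 1 term per arm, all libraries of a tissue), with Benjamini-Hochberg adjustment over all genes at a threshold of 0.05, and log2 CPM for likeness used a prior count of 2. The model was tested on simulated data for HF against LF, drawn from its own fitted spread. That test cannot show how the model handles single outlying libraries. DESeq2 1.42.0, limma voom 3.58.1, RLE factors, other filters, a replicate block and left-out libraries were alternatives. The edgeR test gives no SE, so the SE of a log2 fold change was its absolute value divided by the square root of the F statistic. All members were named, and of each other list the 2 genes with the highest mean CPM and any past the test, plus the 6 genes most like the members. Trac, Foxp3, Cxcl13, Il7, Jchain, the liver values of Ccl5 and Lat and the genes closest to Il7r and to liver Lck and Cd4 were added after their values were seen. Members and lists were chosen with earlier results of these data known. Floors and intervals hold counting error alone, because no molecular identifiers mark independent molecules. Same-numbered libraries of different arms had a correlation of deviations over 0.1 in 7 of 14 pairs in eWAT and 5 of 13 in liver. For other-numbered pairs this was 16 of 70 and 12 of 61, a smaller share. The main fits did not pair samples by number, and a fit with the number as a block is given as an alternative.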

Additional observations from a re-analysis of the deposited data

Results flagged for a closer look

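Of the 36 combinations of gene, tissue and arm examined, 3 had 1 library far from the others of its arm, where chance flags about 1 in 20. Ccr7 in eWAT LF stood at 8.92 CPM in LF 2, with the next LF library at 2.48 CPM. Il7r in eWAT HF stood at 43.2 CPM in HF 2, with the next HF library at 16.96 CPM. Lck in liver HF stood at 2.85 CPM in HF 6, with the next HF library at 0.955 CPM. The first falls in the library with the most B cell transcripts, the second in a library with high Ctss and Itgax, and the third in the liver with the most Ighm. The part of other cells in these values was not tested.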

How the results depend on the processing

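Counts of genes passing depended on the tool: against 0 by edgeR, DESeq2 gave 12, 69 and 52 genes in eWAT (HF against LF, HFLF against LF, HFLF against HF), 1 and 11 in liver (the first 2) and 23 in the interaction for HFLF against LF; the cause was not tested. Of the member values recomputed, 1109 kept their direction and side of the threshold, 31 reversed and 5 passed where the reported value did not. All 5 are Cd4 between tissues, in 4 left-out eWAT libraries and 1 block. The 1109 count DESeq2 values with no adjusted p as not passing. They include 36 values of the fit without a filter, which repeats the main fit because the filter removed 0 genes. Leaving out single libraries moved the log2 fold change of HF against LF in eWAT from -1.49 to 0.070 for Cd8b1, -1.30 to 0.21 for Cd8a, -1.30 to 0.16 for Cd3g, -0.96 to 0.25 for Ccr7 and -0.32 to 0.66 for Il7r, where LF 2 gave the positive values of the first 4. For HFLF against HF the ranges were -0.45 to 0.025 for Lck, -0.54 to 0.024 for Cd8b1, -0.70 to 0.33 for Cd8a, -0.34 to 0.17 for Cd3g, -0.33 to 0.37 for Cd3d, -0.48 to 0.081 for Cd3e and -0.63 to 0.22 for Cd5, with the upper end reached without HF 3 for Cd8a and without HF 5 for the others. Liver Cd4 in HFLF against LF ran from -0.17 to 0.31, the HF against LF interaction of Cd4 from -0.93 to 0.19, and the HFLF against HF interaction of Lck from -0.27 to 0.71. Genes called ran from 0 to 13 in eWAT HFLF against LF (13 without LF 5, with 0 members), from 0 to 1 in the interactions for HFLF against LF and for HFLF against HF, and members called between tissues from 1 to 2. Without LF 2, HF 3 and HF 5, HFLF against HF was 0.37 for Lck, 1.39 for Cd8a, 0.18 for Cd4, 0.65 for Cd3g, 0.95 for Cd3d, 0.52 for Cd3e and 0.60 for Cd5. Without the 4 libraries with testis transcripts Il7r was -0.31 in HF against LF, and by limma voom Cd3d was 0.11 in HFLF against HF.

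With the replicate number as a block, the members' medians were -0.59, -0.88 and -0.33 in the 3 eWAT comparisons, 0 genes passed in eWAT and 1 in liver for HFLF against LF. Blocking on animals that gave both tissues (limma voom) called 2 members between tissues, Cd4 at -0.67 (adjusted p = 0.0296). Leaving out single libraries in the fit of both tissues, and list medians without several libraries, were chosen after seeing the data. Low counts limit Cd8a, Cd8b1 and liver Lck most.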
